A study of Homo sapiens and Mus musculus with 24 samples.

Results

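Cells of the human prostate cancer line LNCaP were compared after growth beside fibroblasts that the labels name CCAFs, without drug, with LNCaP cells grown alone, without drug. The libraries were chosen by their labels, and 4 of the 24 libraries of the series enter: 2 of LNCaP alone and 2 of LNCaP with CCAFs. LNCaP is 1 established epithelial line that responds to androgens, and the labels give its genotype as WT in every group. All 4 cultures received the vehicle DMSO and were collected at day 7, with 2 biological replicates in each group, per the labels. The labels do not spell out CCAF or CRPCCAF. Titles of the CCAF cocultures carry a tag that is not explained there. Fibroblasts sequenced on their own in the series are mouse cells, and no source used here states how human reads were kept apart from fibroblast reads. Further conditions of the same line serve for comparison: LNCaP alone and with CCAFs under 1 µM enzalutamide, a drug that blocks androgen signalling, and LNCaP with the fibroblasts labelled CRPCCAFs under DMSO, each in 2 libraries at day 7.

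When oxygen is short, or when its sensors are inhibited, the transcription factor subunits HIF1A and EPAS1 escape degradation and switch on genes for glucose uptake, glycolysis, lactate export, mitophagy, collagen hydroxylation and vessel growth. The sensors are the prolyl hydroxylases EGLN1, EGLN2 and EGLN3, and VHL marks the hydroxylated subunits for destruction. In prostate epithelium androgens drive the kallikrein genes and a secretory and lipid programme, and hold down a smaller set that includes DDC and the UGT2B enzymes.

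The table of RPKM values (reads scaled by gene length and by mapped reads) gave 16042 genes at 1 RPKM or more in at least 2 of the 12 LNCaP libraries. The steps between values gave an estimate of the reads assigned to genes in each library. These totals were 18447653 and 22032322 for LNCaP alone and 19310470 and 19027307 with CCAFs. The RNA was that of luminal prostate cells: the 20 luminal epithelial markers summed to 1534 and 1499 RPKM in LNCaP alone and 1613 and 1598 RPKM with CCAFs, against 16.3, 12.9, 22.1 and 21.5 RPKM for 12 basal and mesenchymal markers. The 25 fibroblast markers summed to 91 and 88.9 RPKM alone and 125 and 120 RPKM with CCAFs. Without FN1 (fibronectin), which LNCaP cells grown alone also expressed, the sums were 52.9 and 48.4 against 49.5 and 49 RPKM. Of these 25 markers, 9 reached 1 RPKM in any of the 4 libraries, 7 were under 0.1 RPKM in all 4 and 0 were at 0 in all 4. The 10 leukocyte markers summed to between 4.63 and 5.66 RPKM in the 4 libraries, and 8 endothelial markers to 1.8 and 1.36 RPKM alone and 2.96 and 2.81 RPKM with CCAFs, with CDH5 at 0. In bulk RNA of this kind, fewer cells of a type and less RNA per cell cannot be told apart.

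Beside CCAFs, LNCaP cells held more RNA of glycolysis enzymes, hypoxia-induced genes and many androgen-activated genes, and less RNA of amino acid stress genes and of several androgen-repressed genes. In limma's moderated test on log2(RPKM + 1), 1518 of 16042 genes passed an adjusted p of 0.05 (9.46%), of which 878 rose (5.47%) and 640 fell (3.99%). The rises were the larger changes. Their median log2 difference was 0.38, against -0.29 for the falls, and 78 rises and 9 falls reached 2-fold on the log2(RPKM + 1) scale. Of those 78 rises, 22 belong to the lists of glycolysis and hypoxia-induced genes and 4 to the list of androgen-activated targets. These lists hold 57 and 36 of the 16042 genes tested and were chosen with earlier results of these data known. The libraries of the 2 groups did not overlap in 8971 genes (55.9%), so an absence of overlap alone was common. Fewer genes passed when 1 of the 4 libraries was left out: 701 and 824 without the first or the second library of LNCaP alone, and 640 and 699 without the first or the second CCAF library. A core of 485 genes passed in all of these fits, 368 that rose and 117 that fell. Every adjusted p below comes from limma, every log2 difference is CCAF coculture minus LNCaP alone on log2(RPKM + 1) unless stated otherwise, and every fold is a ratio of mean RPKM.

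**Figure D1:**
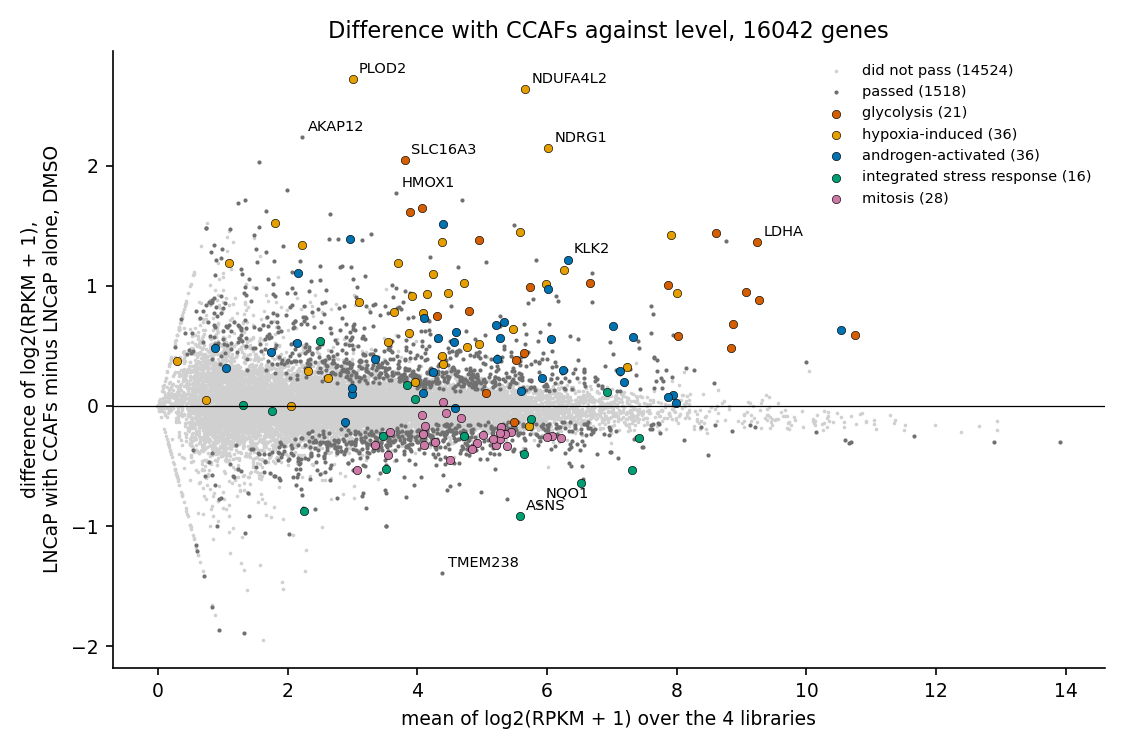
Each point is 1 of 16042 genes: the horizontal axis gives its mean log2(RPKM + 1) over the 4 DMSO libraries and the vertical axis the log2 difference, LNCaP with CCAFs minus LNCaP alone. Light grey points did not pass and dark grey points passed, coloured points are members of 5 gene lists, and the glycolysis and hypoxia-induced genes lie mostly above 0 at low and high levels alike, while the mitosis genes lie just below 0.

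Among the parts of the oxygen-sensing machinery, 3 of 9 genes rose, 0 fell and 6 did not pass, with a median log2 difference of 0.075 against -0.0062 over all genes tested. HIF1A itself stood at 38.3 and 42.1 RPKM alone and 40 and 38.8 RPKM with CCAFs. Its libraries overlapped and its difference did not pass (log2 -0.025, SE 0.0708, adjusted p = 0.87). EGLN3, a prolyl hydroxylase that is itself induced by HIF, had 7.97 and 7.21 RPKM alone and 16.4 and 16.1 RPKM with CCAFs. Both coculture libraries were above both libraries of LNCaP alone (2.14-fold, log2 1.00, SE 0.0496, adjusted p = 2.5e-06). EGLN1, the main oxygen sensor of this family, rose 1.72-fold from 10.2 RPKM in each library alone to 17.2 and 17.9 RPKM (adjusted p = 6.5e-06). The third rise was that of EPAS1, the alternative HIF subunit, at 0.702 and 0.728 RPKM alone and 1.14 and 1.23 RPKM with CCAFs (log2 0.35, adjusted p = 0.039). That call was lost without any 1 of the 4 libraries, at adjusted p from 0.12 to 0.17. VHL (log2 -0.075), ARNT, the shared partner of both subunits (0.073), and HIF1AN, which hydroxylates their activation domain (0.075), did not pass.

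Genes of glucose uptake and glycolysis rose across nearly the whole path. Of 21 measured, 19 rose, 0 fell and 2 did not pass, and their median log2 difference was 0.88. Leaving out any 1 of the 4 libraries left 19 rises. At entry, the glucose transporter SLC2A1 rose from 20.8 and 19.4 RPKM to 35.3 and 35.6 RPKM (1.77-fold, adjusted p = 2.8e-05). HK2, the inducible hexokinase, rose 1.73-fold and HK1, the housekeeping form, 1.31-fold. GPI, the isomerase of glucose 6-phosphate, rose from 167 and 160 RPKM to 334 and 323 RPKM (2.01-fold, log2 1.00, SE 0.0389, adjusted p = 6.6e-07).

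The 3 phosphofructokinase genes parted. PFKP, the platelet form, had 38.8 and 35 RPKM alone and 74.6 and 73.9 RPKM with CCAFs (2.01-fold, adjusted p = 3.1e-06). PFKL, the liver form, rose 1.36-fold (adjusted p = 0.00011). PFKM, the muscle form, stood at 46.2 and 46.1 RPKM alone and 41.9 and 42.1 RPKM with CCAFs, and this lower value did not pass (log2 -0.13, adjusted p = 0.052). With median-of-ratios scaling it passed as a fall, the only change of call in the list. The bifunctional enzymes PFKFB3 and PFKFB4, which make the fructose 2,6-bisphosphate that activates phosphofructokinase, rose more than any of the 3. PFKFB3 went from 7.84 and 7.08 RPKM to 25.1 and 24.6 RPKM (3.33-fold, log2 1.61, SE 0.0557, adjusted p = 2.8e-07), and PFKFB4 from 9.71 and 7.4 RPKM to 30 and 27.4 RPKM (3.35-fold, log2 1.64, SE 0.0990, adjusted p = 7.3e-06).

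Further down the path, PGK1, the first enzyme to yield ATP, had 246 and 224 RPKM alone and 634 and 646 RPKM with CCAFs. Its libraries lay far apart (2.72-fold, log2 1.44, SE 0.0424, adjusted p = 1.6e-07). ENO2, the neuronal enolase, rose 2.68-fold from 19.7 and 16.8 RPKM, while ENO1, present at 470 and 443 RPKM alone, rose 1.84-fold. The aldolases ALDOC and ALDOA rose 2.05-fold and 1.93-fold, PKM 1.61-fold, GAPDH and PGAM1 1.5-fold each, and TPI1 1.4-fold. LDHA, which turns pyruvate into lactate, rose from 391 and 364 RPKM to 976 and 966 RPKM (2.57-fold, log2 1.36, SE 0.0397, adjusted p = 1.6e-07). Lactate leaves the cell through monocarboxylate transporters. SLC16A3, the export form, rose from 7.32 and 4.73 RPKM to 27.5 and 27.4 RPKM (4.56-fold, log2 2.04, SE 0.132, adjusted p = 1.3e-05), whereas SLC16A1 had 31 and 30.9 RPKM alone and 33.1 and 33.8 RPKM with CCAFs and did not pass (log2 0.11, adjusted p = 0.14). Several of these enzymes, among them GAPDH, PGK1, LDHA and ENO1, have processed pseudogene copies, and no source used here states how reads shared between near-identical copies were counted.

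The hypoxia-induced genes that act on mitochondria gave 7 rises, 0 falls and 1 gene of 8 that did not pass, with a median log2 difference of 1.04. NDUFA4L2, which dampens electron transport at complex I, had 24.7 and 15 RPKM alone and 127 and 124 RPKM with CCAFs. The 2 libraries of LNCaP alone differed more from each other than the coculture libraries did, yet both lay far below them (6.32-fold, log2 2.64, SE 0.168, adjusted p = 1.1e-05). PDK1 and PDK3, kinases that keep pyruvate out of the citric acid cycle, rose 2.7-fold and 1.5-fold. BNIP3, a receptor for mitophagy, rose from 155 and 138 RPKM to 388 and 398 RPKM (2.69-fold, adjusted p = 1.1e-06). Its relative BNIP3L rose from 50.9 and 51 RPKM to 112 and 114 RPKM (2.22-fold, adjusted p = 1.6e-07). FAM162A rose 1.93-fold and MXI1, an antagonist of MYC, 1.76-fold. HIGD1A, a respiratory supercomplex factor, was the gene that did not pass, at 53.9 and 55.3 RPKM alone and 46.3 and 51 RPKM with CCAFs (adjusted p = 0.1).

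All 6 genes measured for collagen and disulfide modification rose, with a median log2 difference of 1.10. PLOD2, the lysyl hydroxylase that sets the type of collagen cross-link, showed the largest log2 difference of any named gene. It had 2.44 and 1.82 RPKM alone and 19.6 and 19.5 RPKM with CCAFs (9.18-fold, log2 2.72, SE 0.0901, adjusted p = 2.4e-07). P4HA1, the catalytic subunit of prolyl 4-hydroxylase, rose from 29 and 27.1 RPKM to 78 and 78.5 RPKM (2.79-fold, adjusted p = 2.4e-07). PLOD1 rose 2.04-fold, the other subunit gene P4HA2 1.98-fold, and ERO1A, an oxidase that forms disulfide bonds in the endoplasmic reticulum, 1.97-fold. LOX, the lysyl oxidase that cross-links collagen outside the cell, started from 0.439 and 0.376 RPKM (45 and 46 reads) and reached 1.97 and 2.49 RPKM (211 and 263 reads). Its 2 groups lay apart (5.47-fold, log2 1.19, SE 0.130, adjusted p = 0.00044).

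Secreted and acid-base genes were less uniform: 3 of 6 rose, 0 fell and 3 did not pass, with a median log2 difference of 0.30. VEGFA, the vascular growth factor, rose from 19.2 and 15.9 RPKM to 36.4 and 36.7 RPKM (2.08-fold, log2 1.02, SE 0.0699, adjusted p = 1.8e-05). STC1, a secreted glycoprotein hormone, rose from 2.25 and 1.62 RPKM to 6.21 and 6.55 RPKM (3.3-fold, adjusted p = 4.0e-05). Its paralogue STC2 rose by log2 0.20 (adjusted p = 0.046), a call lost without any 1 of the 4 libraries, at adjusted p from 0.11 to 0.21. CA9, the carbonic anhydrase best known as a hypoxia marker, had only 3 and 2 reads alone and 9 and 15 reads with CCAFs and did not pass (log2 0.37, adjusted p = 0.16). ADM, the vasodilator adrenomedullin, overlapped between the groups at 0.783 and 0.513 RPKM against 0.618 and 0.792 RPKM (adjusted p = 0.91).

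Regulators and other hypoxia-induced genes gave 14 rises, 0 falls and 2 of 16 that did not pass, with a median log2 difference of 0.63. NDRG1, a stress-induced differentiation gene that androgens also raise, had 30.8 and 28.6 RPKM alone and 134 and 136 RPKM with CCAFs. The 2 groups lay far apart (4.53-fold, log2 2.14, SE 0.0394, adjusted p = 7.8e-09). TMEM45A, a membrane protein, rose from 1.27 and 0.862 RPKM to 4.26 and 5.66 RPKM (4.65-fold, adjusted p = 9.8e-05). ANKRD37 rose 2.46-fold and BHLHE40, a circadian repressor, 2.24-fold. INSIG2, which holds back sterol synthesis, rose from 12.1 and 11.6 RPKM to 23.7 and 23.5 RPKM (1.99-fold, adjusted p = 2.7e-06). Of the oxygen-dependent histone demethylases, KDM3A rose 1.8-fold and KDM4B 1.44-fold, while KDM4C did not pass (log2 0.29, adjusted p = 0.052). DDIT4, an inhibitor of mTORC1, rose 1.25-fold from 141 and 127 RPKM (adjusted p = 0.0086), a call that held only without the first library of LNCaP alone. KLF6, a zinc finger factor, was at 3.32 and 2.98 RPKM alone and 3.45 and 2.87 RPKM with CCAFs, with overlapping libraries.

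Over these 5 lists of 65 genes, 57 were measured, 49 rose (86%, against 5.47% of all genes), 0 fell and 8 did not pass. The libraries of the 2 groups did not overlap in 55 of the 57, against 55.9% of all genes. Without any 1 library, between 46 and 47 rose. The members that did not pass are HIGD1A, PFKM, SLC16A1, KDM4C, CA9, CA12, ADM and KLF6.

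**Figure D2:**
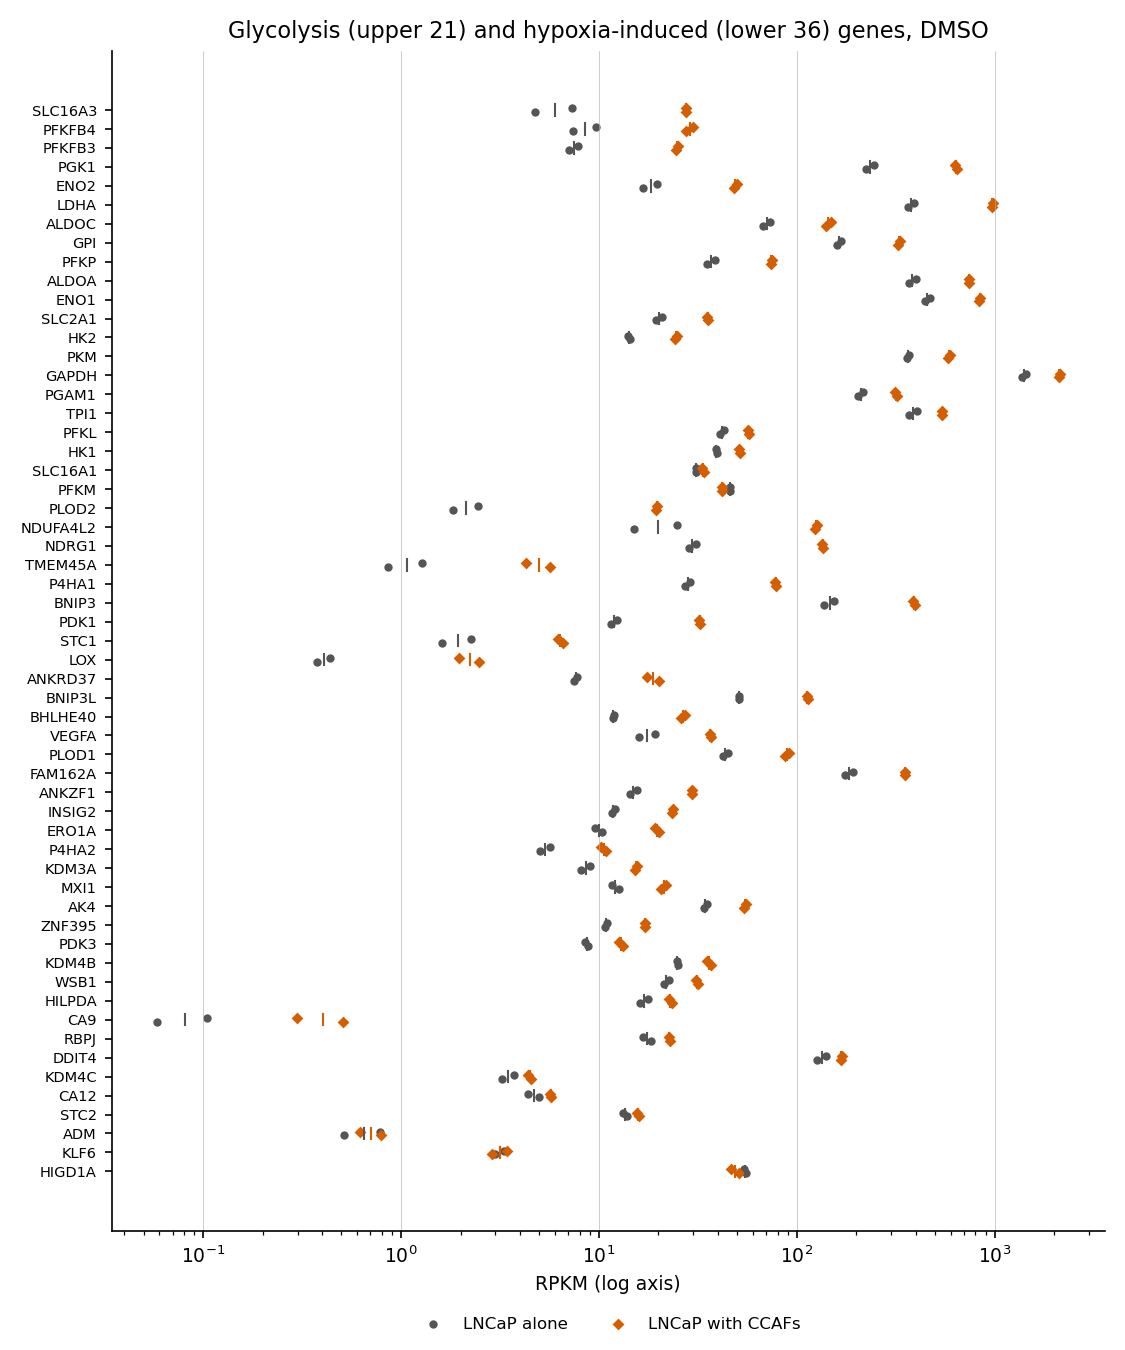
Levels of 21 glycolysis genes (top) and 36 hypoxia-induced genes (bottom) in RPKM on a log axis, grey circles for the 2 libraries of LNCaP alone, orange diamonds for the 2 libraries with CCAFs and ticks for the group means. The coculture libraries stand to the right for all genes but PFKM and HIGD1A, where they stand to the left, and ADM and KLF6, where the groups overlap.

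Promoters of the glycolysis and hypoxia-induced genes were read for the core of the hypoxia response element. The core is ACGTG on either strand (CACGT on the other), which also lies inside the E-box CACGTG. RefSeq promoters (build GRCh38.p14) matched 48 of the 57 measured members. In the 250 bases before the start, 26 of the 48 held the core (54.2%), and so did 22 of the 41 that rose (53.7%). Among the members that did not pass, HIGD1A, CA9, KDM4C and KLF6 held it, while PFKM, ADM and CA12 did not. The lists were made of known glycolysis and hypoxia-induced genes, so these shares describe the lists and not the rise beside CCAFs. Among the promoters of all genes tested that matched, 2348 of 9826 held it (23.9%), and so did 5101 of all 27305 promoters listed (18.7%). The 5 promoters shown belong to the members with the largest rises that matched, to show where the core lies and where these letters are missing. Capitals mark the core, each line runs 5′ to 3′ on the strand of its gene, and only PLOD2 holds it, at 200 and 146 bases before its start. The absence of these letters says only that they are not in this window. PLOD2 lies at chr3:146161185-146161434 (minus strand), SLC16A3 at chr17:82228185-82228434 (plus strand), PFKFB4 at chr3:48556804-48557053 (minus strand), PFKFB3 at chr10:6144671-6144920 (plus strand) and TMEM45A at chr3:100492369-100492618 (plus strand).
PLOD2: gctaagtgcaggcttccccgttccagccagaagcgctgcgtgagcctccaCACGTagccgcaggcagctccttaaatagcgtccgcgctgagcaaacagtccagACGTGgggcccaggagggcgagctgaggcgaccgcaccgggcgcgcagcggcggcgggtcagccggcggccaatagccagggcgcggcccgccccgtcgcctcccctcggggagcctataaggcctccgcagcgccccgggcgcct
SLC16A3: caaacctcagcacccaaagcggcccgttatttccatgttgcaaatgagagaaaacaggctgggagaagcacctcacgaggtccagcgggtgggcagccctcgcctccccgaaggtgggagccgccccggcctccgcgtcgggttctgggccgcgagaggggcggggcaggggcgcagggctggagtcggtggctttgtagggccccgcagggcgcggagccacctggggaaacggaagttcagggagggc
PFKFB4: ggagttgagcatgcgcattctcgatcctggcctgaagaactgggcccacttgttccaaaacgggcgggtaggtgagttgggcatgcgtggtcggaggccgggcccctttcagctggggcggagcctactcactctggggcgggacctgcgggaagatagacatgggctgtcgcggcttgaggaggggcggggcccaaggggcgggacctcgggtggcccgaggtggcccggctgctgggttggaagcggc
PFKFB3: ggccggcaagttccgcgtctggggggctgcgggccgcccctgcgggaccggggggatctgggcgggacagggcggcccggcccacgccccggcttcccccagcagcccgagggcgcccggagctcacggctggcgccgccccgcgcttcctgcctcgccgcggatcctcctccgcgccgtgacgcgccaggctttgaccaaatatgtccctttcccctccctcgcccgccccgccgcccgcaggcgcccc
TMEM45A: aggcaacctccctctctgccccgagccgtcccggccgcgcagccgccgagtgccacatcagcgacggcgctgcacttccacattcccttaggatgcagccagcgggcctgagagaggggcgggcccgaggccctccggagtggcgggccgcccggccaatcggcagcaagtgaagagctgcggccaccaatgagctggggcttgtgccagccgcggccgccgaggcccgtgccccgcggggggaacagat

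Genes that androgens activate were higher beside CCAFs: 24 of 36 rose, 0 fell and 12 did not pass, with a median log2 difference of 0.46. Between 20 and 23 rose when 1 library was left out. The kallikreins differed in size. KLK2 rose from 54.6 and 48.1 RPKM to 120 and 121 RPKM (2.35-fold, log2 1.22, SE 0.0702, adjusted p = 5.6e-06). KLK3, the gene of prostate-specific antigen, had 1243 and 1145 RPKM alone and 1861 and 1849 RPKM with CCAFs, both coculture libraries above both others (1.55-fold, log2 0.64, SE 0.0537, adjusted p = 6.9e-05). KLK4 rose 1.18-fold (adjusted p = 0.012), a call lost without the first library of either group (adjusted p = 0.082 and 0.096). The largest rises of the list were those of ADAM7, a membrane protein of the male tract, from 12 and 10.8 RPKM to 33.8 and 35.1 RPKM (3.02-fold, adjusted p = 2.2e-06), and TRPM8, the cold-sensing channel, from 3.88 and 3.76 RPKM to 11.3 and 12 RPKM (3.05-fold, adjusted p = 5.5e-06). MAF, a leucine zipper factor, rose 2.72-fold from 2.16 and 1.9 RPKM. HERC3, a ubiquitin ligase, rose from 41.9 and 48.3 RPKM to 88.9 and 89.5 RPKM (1.98-fold, adjusted p = 2.5e-05).

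Moderate rises covered several functions. TSC22D3, which glucocorticoids induce as well, rose 1.72-fold, the centromere gene CENPN 1.64-fold, the potassium channel KCNN2 1.61-fold and TMPRSS2, the serine protease fused to ETS genes in many tumours, 1.59-fold from 105 and 98.2 RPKM. FKBP5, a co-chaperone of steroid receptors, rose from 15.1 and 15.7 RPKM to 23 and 23.4 RPKM (1.51-fold, log2 0.56, SE 0.0546, adjusted p = 0.00019). CAMKK2, a kinase upstream of AMPK, rose 1.56-fold, the transporter ABCC4 1.5-fold and ACSL3, which activates fatty acids, 1.48-fold. SLC45A3, a sugar transporter, rose 1.15-fold (adjusted p = 0.0051), at adjusted p = 0.058 without the first CCAF library. Of the 12 genes of this list that did not pass, most are not named, and MED28 and EAF2 did not separate the groups.

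Among 11 androgen-repressed genes, 5 fell, 1 rose and 5 did not pass, with a median log2 difference of -0.37. DDC, the decarboxylase of aromatic amino acids, fell from 17.5 RPKM in each library to 9.79 and 10.1 RPKM (1.76-fold lower, log2 -0.76, SE 0.0390, adjusted p = 2.9e-06). UGT2B17, which inactivates androgens, fell from 9.77 and 11.3 RPKM to 6.37 and 6.97 RPKM (1.58-fold lower, adjusted p = 0.00078). Its near-identical neighbour UGT2B15 fell 1.58-fold too, and reads shared by the pair may count for either. ACKR3, a scavenging chemokine receptor, fell 1.34-fold and OPRK1, an opioid receptor at 0.687 and 0.61 RPKM alone, fell to 0.229 and 0.323 RPKM (adjusted p = 0.023), a call lost without any 1 library. CAMK2N1, an inhibitor of calcium/calmodulin kinase II, was the member that rose (1.33-fold, adjusted p = 0.0031). The 5 that did not pass are not named here. The number that fell was 3 without the first library of either group and 4 without the second library of either group. UGT2B15 lost its call without the first library of either group (adjusted p = 0.059 and 0.06).

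**Figure D3:**
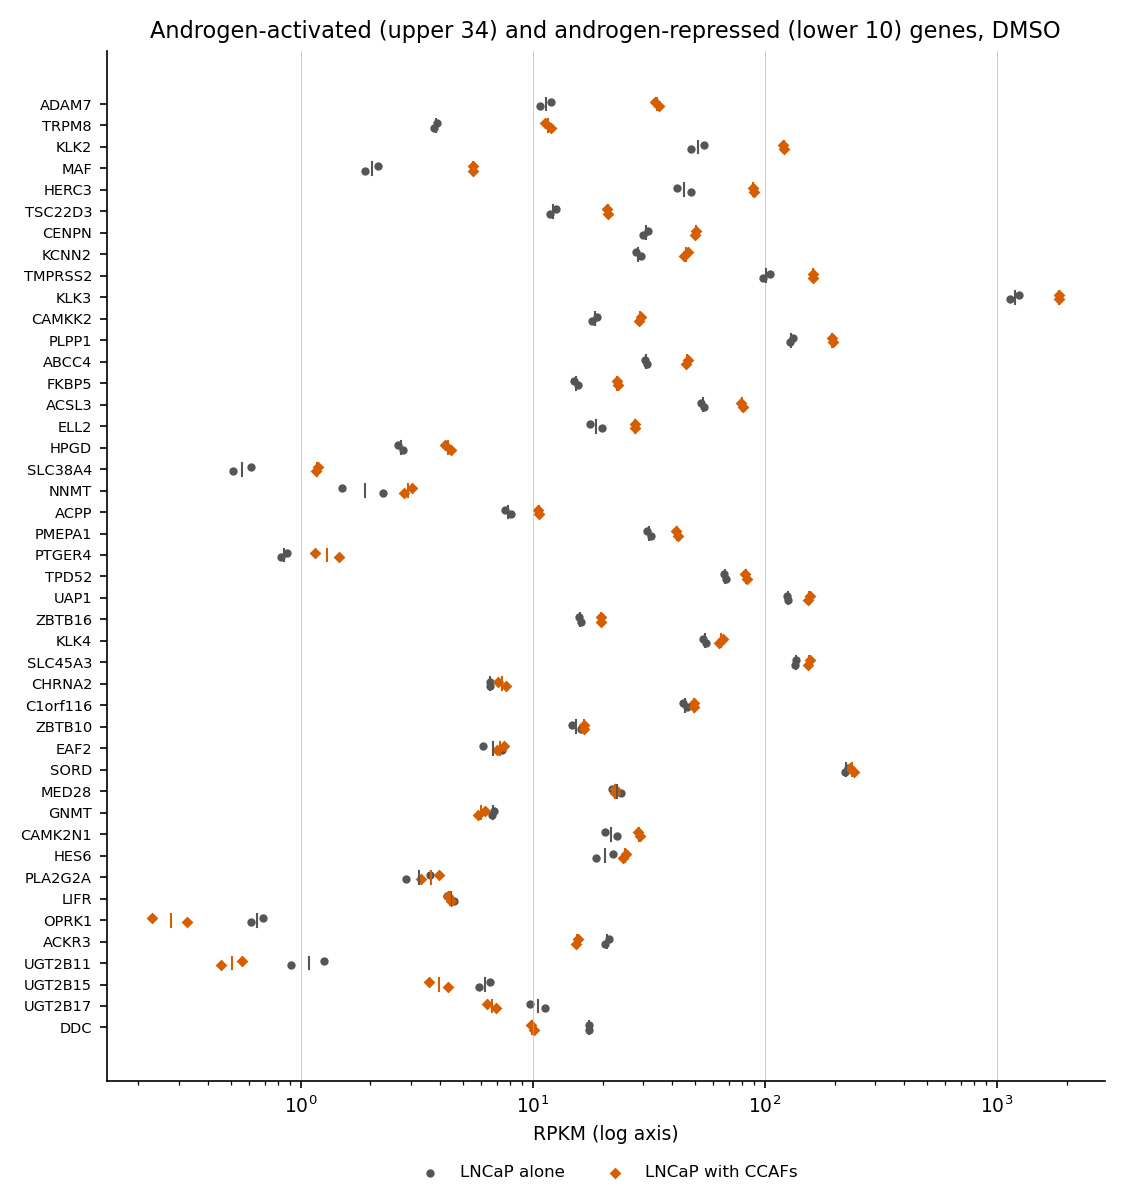
Levels of 34 androgen-activated genes (top) and 10 androgen-repressed genes (bottom) in RPKM on a log axis, grey circles for the 2 libraries of LNCaP alone, orange diamonds for the 2 libraries with CCAFs and ticks for the group means. KLK2 stands to the right with CCAFs, at 120 and 121 RPKM, and DDC to the left, at 9.79 and 10.1 RPKM.

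Genes of the ATF4 pathway were among those that fell, a pathway that cells use to make amino acids and charge tRNAs when these run short. Of 16 genes of the integrated stress response, 8 fell, 1 rose and 7 did not pass, with a median log2 difference of -0.25, and 6 or 7 fell when 1 library was left out. ASNS, asparagine synthetase, fell from 66.2 and 63.4 RPKM to 33.8 RPKM in each coculture library (1.92-fold lower, log2 -0.92, SE 0.0428, adjusted p = 1.9e-06). The 2 enzymes at the head of serine synthesis fell with it. PHGDH went from 200 and 182 RPKM to 130 and 133 RPKM (1.46-fold lower, adjusted p = 0.00017) and PSAT1 from 115 and 112 RPKM to 70.5 and 74.5 RPKM (1.57-fold lower, adjusted p = 3.7e-05). MTHFD2, of mitochondrial folate metabolism, fell 1.33-fold. CHAC1, which degrades glutathione, fell from 5.97 and 5 RPKM to 2.68 and 2.38 RPKM (2.16-fold lower, adjusted p = 0.002). ATF4 itself was lower at 152 and 156 RPKM against 188 and 184 RPKM (1.21-fold, adjusted p = 0.0042), and CEBPB fell by 0.52 on the log2 scale (adjusted p = 0.031), a call lost without any 1 library, at adjusted p from 0.086 to 0.16. VLDLR, a lipoprotein receptor, was the gene of this list that rose (log2 0.54). PCK2, mitochondrial phosphoenolpyruvate carboxykinase and in no list, fell 1.73-fold from 55.6 and 52 RPKM to 32.6 and 29.5 RPKM (adjusted p = 3.3e-05).

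Oxidative stress genes went in both directions. NRF2 is a transcription factor of the response to electrophiles. Of 16 targets, 4 fell (25%, against 3.99% of all genes), 1 rose (6.25%, against 5.47%) and 11 did not pass. HMOX1, haem oxygenase, was the rise, from 5.51 and 6.24 RPKM to 23.7 and 21.3 RPKM (3.83-fold, log2 1.77, SE 0.0843, adjusted p = 2.1e-06). NQO1, a quinone reductase, fell from 79.7 and 74.9 RPKM to 42.7 and 44.1 RPKM (1.78-fold lower, log2 -0.82, SE 0.0403, adjusted p = 2.5e-06). SLC7A11, the cystine importer that ATF4 also drives, fell 1.55-fold from 18.8 and 20.2 RPKM to 12.4 and 12.8 RPKM (adjusted p = 0.00024). GCLM, a subunit of the first enzyme of glutathione synthesis, fell 1.25-fold. ME1, malic enzyme, fell 1.17-fold, a call that stayed past the threshold only without the second library of LNCaP alone.

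Changes of chaperone genes were small, but more passed than among all genes, of which 5.47% rose and 3.99% fell. In the unfolded protein response, 4 of 14 rose (28.6%) and 1 fell (7.14%), and 20% of the heat shock genes below fell. The sign was higher in 12 of the 14. HSPA5, the main chaperone of the endoplasmic reticulum, was 1.11-fold higher (adjusted p = 0.031). XBP1, a transcription factor of the unfolded protein response, was 1.21-fold lower (adjusted p = 0.01). Without 1 library, 2 rose when the first library of LNCaP alone was left out and 0 rose when any of the other 3 was. The fall of XBP1 lost its call without the first library of LNCaP alone or the second CCAF library (adjusted p = 0.08 each). Of 10 heat shock genes, 2 fell, HSP90AA1 by 0.16 and HSPD1 by 0.21 on the log2 scale, and 0 rose; 1 fell without the first library of LNCaP alone or without either CCAF library.

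Rises among lipid genes were mostly small. Of 10 genes of fatty acid synthesis, 6 rose, 0 fell and 4 did not pass, with a median log2 difference of 0.23, and 5 rose when any 1 library was left out. SCD, the desaturase that makes monounsaturated fat, rose from 144 and 146 RPKM to 259 and 257 RPKM (1.78-fold, log2 0.83, SE 0.0374, adjusted p = 1.7e-06). The other desaturases FADS2 and FADS1 rose 1.51-fold and 1.34-fold. ACLY, which makes acetyl-CoA from citrate, rose from 137 and 140 RPKM to 203 and 202 RPKM (1.46-fold, adjusted p = 1.3e-05), and FASN, fatty acid synthase, rose 1.24-fold. Cholesterol genes gave 5 rises (27.8%, against 5.47% of all genes), 0 falls and 13 of 18 that did not pass. INSIG1, the feedback brake on SREBP, rose 1.44-fold and STARD4, a sterol carrier, 1.45-fold. The count was 4 without the first library of LNCaP alone and 2 without any other library. In steroid metabolism, 2 of 9 rose, and 1 without the first library of LNCaP alone or the second CCAF library. CYP11A1, which cleaves the side chain of cholesterol, rose from 1.29 and 1.25 RPKM to 4.49 and 3.98 RPKM (3.33-fold, log2 1.20, SE 0.121, adjusted p = 0.00025).

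Mitosis genes were slightly lower, and DNA replication genes were not. Of 28 mitosis genes, 16 fell, 0 rose and 12 did not pass, with a median log2 difference of -0.25, and 27 of 28 had a lower sign. The count of falls rested on having all 4 libraries: it was 6 without the first and 3 without the second library of LNCaP alone, and 4 without the first and 6 without the second CCAF library, while the median stayed between -0.26 and -0.24. CDK1, the kinase that starts mitosis, had 79.2 and 82.1 RPKM alone and 65.9 and 67.7 RPKM with CCAFs (1.21-fold lower, log2 -0.27, SE 0.0409, adjusted p = 0.0035). CENPE, a kinetochore motor, fell from 9.07 and 9.24 RPKM to 5.95 and 6.07 RPKM (1.52-fold lower, adjusted p = 0.0057), and CENPF fell 1.38-fold. MKI67, the common proliferation marker, overlapped between the groups at 19.8 and 22.5 against 20.7 and 19.7 RPKM (adjusted p = 0.66). Of 28 DNA replication genes, 0 rose and 1 fell (3.57%, against 3.99% of all genes). The median was -0.035, and the sign was higher in 13 and lower in 15. The fall was that of RRM1, a ribonucleotide reductase subunit, and it held only without the second library of LNCaP alone.

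Replication-linked histone genes, whose RNAs mostly lack a poly(A) tail, were not lower: 9 of 49 rose, 0 fell and 40 did not pass, with a median log2 difference of 0.29. HIST1H4H led them, from 35.9 and 36.9 RPKM to 82.4 and 89.8 RPKM (2.36-fold, log2 1.22, SE 0.0581, adjusted p = 2.1e-06). HIST2H2BE rose 1.34-fold from 39.9 and 44.8 RPKM. Histone genes are close copies of each other, so that reads may be split between them. The number of rises was 3 without the first library of LNCaP alone, 5 without either CCAF library and 9 without the second library of LNCaP alone.

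Few genes of the ribosome and the respiratory chain passed. Of 82 cytosolic ribosomal protein genes, 3 fell (3.66%, against 3.99% of all genes), 0 rose and 79 did not pass. Of 49 nuclear respiratory chain genes, 3 fell (6.12%) and 46 did not pass. A lower sign was seen in 79 of the 82 and in 45 of the 49, with median log2 differences of -0.13 and -0.11, and in 8278 of all 16042 genes. The 3 were SDHD, a succinate dehydrogenase subunit, CYCS, cytochrome c, and ATP5F1, an ATP synthase subunit, each lower by 1.12-fold to 1.15-fold. The falls of ribosomal genes numbered 0 without any 1 library, and those of the respiratory chain numbered 0 without the first library of either group, 2 without the second library of LNCaP alone and 1 without the second CCAF library. In the citric acid cycle, 0 of 16 genes passed in limma, and 6, all lower, had an unadjusted p under 0.05. At that cut, 36 of the 82 ribosomal genes and 18 of the 49 respiratory chain genes were lower and 0 were higher. Over all 16042 genes, 1951 were lower and 1993 higher at the same cut.

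Markers of cell identity moved in part. Of 20 luminal markers, 5 rose (25%, against 5.47% of all genes), 1 fell (5%, against 3.99%) and 14 did not pass. The sign was higher in 15 and lower in 5, with a median log2 difference of 0.10. The genes named next include 2 of the rises and not the fall. KRT19, a luminal keratin, rose from 3.42 and 2.99 RPKM to 6.5 and 6.17 RPKM (1.98-fold, adjusted p = 0.0025), and TFF3, a secreted trefoil peptide, from 0.975 and 0.645 RPKM to 2.89 and 2.29 RPKM (3.2-fold, adjusted p = 0.00083). KRT18 had 240 and 224 RPKM alone and 249 and 246 RPKM with CCAFs and did not pass (adjusted p = 0.35). The number of luminal rises was 3 without the first library of LNCaP alone and 2 without any other library. VIM, vimentin of mesenchymal cells, was low in both groups and rose from 3.6 and 2.38 RPKM to 6.19 and 5.4 RPKM (1.94-fold, adjusted p = 0.0042), at adjusted p = 0.064 in a fit of the 4 libraries alone. Of 10 measured fibroblast markers, FN1 alone rose, from 38.1 and 40.5 RPKM to 76 and 71.4 RPKM (1.88-fold, log2 0.89, SE 0.0555, adjusted p = 9.6e-06), and the median of the 10 was -0.047. The part of fibroblast RNA in this rise was not tested. COL1A1, the main fibroblast collagen, did not pass (log2 0.17, adjusted p = 0.17).

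Several signalling genes rose or fell. SOX4, a developmental transcription factor, rose from 29.7 and 28.1 RPKM to 48.7 and 49.9 RPKM (1.71-fold, log2 0.75, SE 0.0420, adjusted p = 5.0e-06). BAMBI, a decoy receptor of TGF-beta, rose from 24.9 and 26.7 RPKM to 74.6 and 75.9 RPKM (2.92-fold, log2 1.51, SE 0.0475, adjusted p = 2.0e-07). Besides BAMBI, 1 of 10 TGF-beta and BMP response genes rose (SKIL) and 1 fell (ID2). SKIL kept its call only without the second library of LNCaP alone, and ID2 only without the second CCAF library. GDF15, a stress cytokine, rose from 287 and 254 RPKM to 709 and 691 RPKM (2.59-fold, log2 1.37, SE 0.0703, adjusted p = 2.9e-06). CDKN1A, an inhibitor of cyclin-dependent kinases, rose 1.18-fold. IRS1, an adaptor of insulin and IGF receptors, rose from 0.886 and 0.845 RPKM to 2.33 and 2.74 RPKM (2.93-fold, adjusted p = 0.00083). IGFBP3, which binds IGFs outside the cell, fell from 7.03 and 7.87 RPKM to 5.99 and 5.2 RPKM (1.33-fold lower, adjusted p = 0.0067), at adjusted p = 0.051 without the second library of LNCaP alone.

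MMP7, a secreted protease and Wnt target, rose from 1.06 and 1.01 RPKM to 3.77 and 4.1 RPKM (3.81-fold, log2 1.28, SE 0.0933, adjusted p = 2.7e-05). It is in the list of Wnt genes and C8orf4, of which 3 of 6 rose (MMP7, RNF43 and C8orf4) and 0 fell, against 5.47% and 3.99% of all genes, and 1 or 2 rose when 1 library was left out. Of 13 genes of ERK pathway output, 3 rose (SPRY1, CCND1 and MYC, 23.1%) and 1 fell (DUSP4), with 1 or 2 rises and 0 falls when 1 library was left out. In the list of NF-kB targets and chemokines, 0 of 10 measured genes passed in limma, and 1 was higher and 1 lower at an unadjusted p under 0.05. Over all 16042 genes tested, 1993 were higher and 1951 lower at that cut. In the interferon list, 6 of 26 fell and 1 rose, with IFI35 1.53-fold lower (adjusted p = 0.0016). The falls numbered 2 and 1 without the first and the second library of LNCaP alone, and 3 and 2 without the first and the second CCAF library. MYC rose 1.14-fold (adjusted p = 0.019), a call that held only without the first library of LNCaP alone. SPP1 and CD44, at most 0.328 and 0.186 RPKM, were too low to be tested.

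Outside the lists, AKAP12, a scaffold of protein kinases A and C, had 1.28 and 1 RPKM alone and 9.26 and 8.93 RPKM with CCAFs, and the groups lay wide apart (7.97-fold, log2 2.24, SE 0.0765, adjusted p = 2.8e-07). ANGPT2, a vessel-destabilising ligand of TEK, rose from 0.801 and 0.817 RPKM to 4.6 and 4.52 RPKM (5.64-fold, log2 1.62, SE 0.0904, adjusted p = 5.0e-06). DPYSL4, of the neuronal collapsin response family, rose 3.8-fold from 2.51 and 2.7 RPKM. The long noncoding RNA GAPLINC had 5 and 3 reads alone and 32 and 37 reads with CCAFs (log2 1.71, adjusted p = 0.00039). PHGR1, a small protein rich in histidine and glycine, rose from 1.36 and 0.935 RPKM to 5.93 and 6.98 RPKM (log2 1.80, adjusted p = 0.0015), and did not pass with a pseudocount of 0.1 (adjusted p = 0.1).

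TMEM238, a small membrane protein gene, had the largest fall of the named genes other than short RNA genes, from 35.7 and 30.2 RPKM to 11.9 and 11.8 RPKM (2.77-fold lower, log2 -1.39, SE 0.260, adjusted p = 0.0099). Its call was lost without the first library of LNCaP alone (adjusted p = 0.073) and without either CCAF library (0.062 and 0.059). CLU, the chaperone clusterin, fell from 12.6 and 14.2 RPKM to 8.78 and 6.97 RPKM (1.7-fold lower, log2 -0.70, SE 0.102, adjusted p = 0.0025). GRB10, an adaptor that restrains insulin signalling, fell 1.62-fold from 27.8 and 27.6 RPKM (adjusted p = 5.3e-06). CYTH3, an ARF exchange factor, fell 1.63-fold, PKIB, an inhibitor of protein kinase A, 1.74-fold, MANEA, a mannosidase, 1.67-fold and the membrane metalloprotease MMP16 1.76-fold. Among the noncoding RNAs, LINC01133 fell from 5.66 and 5.02 RPKM to 2.32 and 2.72 RPKM (adjusted p = 0.0038), LINC01213 fell 1.8-fold, and LINC00235 fell with a call that held only without the first CCAF library. Of 623 measured short RNA genes, 7 rose and 10 fell, on very few reads: MIR425 had 3 and 7 reads alone and 0 and 0 with CCAFs, MIR103A2 had 3 and 4 against 0 and 0, and SNORD4B had 8 and 4 against 0 and 1. Of the 4 short RNA genes with the largest falls, which include TRNAK3 at 1.48 and 1.86 RPKM alone and 0 in both coculture libraries, 1 passed in all fits that left out 1 library.

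The same coculture under enzalutamide shares no library with the comparison without drug. There, 3107 of 16042 genes passed (19.4%), 1903 that rose (11.9%) and 1204 that fell (7.51%). Of the 878 genes that rose with CCAFs under DMSO, 466 also rose under the drug, which is 53.1% of these and 24.5% of the 1903. Of the 640 that fell under DMSO, 252 also fell under the drug (39.4%, and 20.9% of the 1204) and 78 rose (12.2%). The test of the difference between the 2 coculture effects passed for 1125 genes (7.01%), with 732 effects higher under the drug (4.56%) and 393 lower (2.45%). Among these genes were 221 of the 878 rises (25.2%) and 175 of the 640 falls (27.3%).

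Glycolysis and hypoxia-induced genes rose under the drug as well: 48 of 57 rose and 0 fell there, with a median log2 difference of 0.77 against 0.88 under DMSO. The effect of CCAFs was larger with the drug in 8 of them and smaller in 13. LDHA belonged to the former. It had 2.57-fold more RNA with CCAFs under DMSO and 5.18-fold more under the drug (difference of effects 1.00 on the log2 scale, adjusted p = 1.9e-05). EGLN3 belonged to the latter, at 2.14-fold under DMSO and 1.1-fold under the drug (difference -0.87, adjusted p = 9.1e-05), and so did ENO2 (2.68-fold and 1.49-fold, difference -0.82) and P4HA1 (2.79-fold and 1.83-fold, difference -0.60). Androgen-activated genes gave 17 rises and 4 falls under the drug, and the effect differed in 18 of 36, higher in 6 and lower in 12. TRPM8 and ADAM7 are among the 12, but their RPKM ratios were higher under the drug, 12.1 against 3.05 and 4.42 against 3.02, and with a pseudocount of 0.1 the sign of both differences turned (0.94 and 0.31).

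All 28 mitosis genes and all 28 DNA replication genes rose with CCAFs under enzalutamide, and the difference from the effect under DMSO passed for 27 and 23 of them. In LNCaP alone, all 28 of each list fell with enzalutamide against DMSO, with median log2 differences of -2.22 and -2.02. The medians of the rise with CCAFs under the drug were 0.85 and 0.94. CDK1 had 12.9 and 12.6 RPKM in LNCaP alone under the drug and 25.5 and 26.4 RPKM with CCAFs, so that a 1.21-fold lower level under DMSO stood against a 2.03-fold higher level under the drug (difference 1.24, adjusted p = 1.4e-05). MKI67 went from 3.05 and 3.04 RPKM to 7.64 and 7.46 RPKM under the drug (difference 1.14, adjusted p = 1.8e-04). HMOX1 had 6.41 and 6.25 RPKM alone and 5.69 and 6.98 RPKM with CCAFs under the drug, with overlapping libraries, and its rise under DMSO differed from this (difference -1.78, adjusted p = 3.9e-05). Of 16 amino acid stress genes, 0 passed limma's test of the difference, against 7.01% of all genes. With so few genes, that count does not show equal effects. In 4 of them the unadjusted p of that test was under 0.05, all with a higher effect under the drug. Over all 16042 genes, 2010 had a higher and 1375 a lower effect at that cut. Of the 16 stress genes, 6 fell and 3 rose under the drug, against 8 and 1 under DMSO. The median log2 difference was -0.12 under the drug and -0.25 under DMSO. ASNS fell from 55.5 and 53.1 RPKM to 30 and 28.5 RPKM under the drug (log2 -0.87, adjusted p = 1.4e-06), against -0.92 under DMSO.

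**Figure D4:**
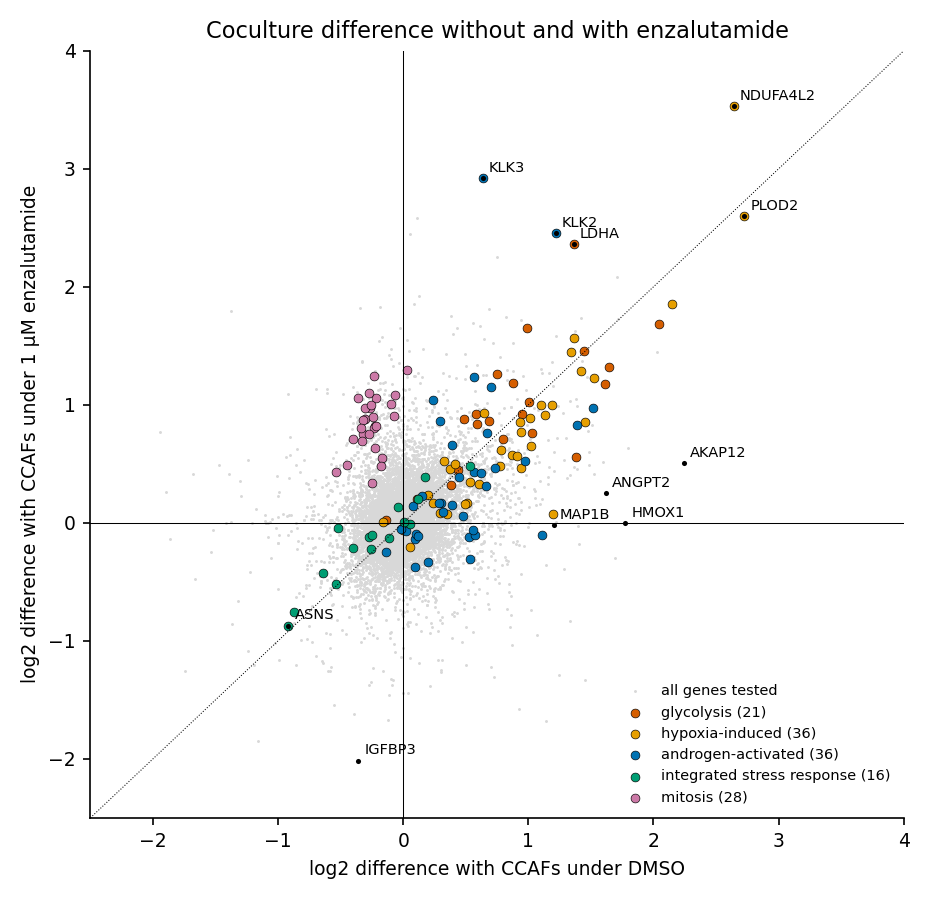
Each point is 1 of 16042 genes: the horizontal axis gives the log2 difference with CCAFs under DMSO and the vertical axis the log2 difference with CCAFs under 1 µM enzalutamide, from libraries that are not shared, and the dotted line marks equal differences. Coloured points are members of 5 lists: most glycolysis and hypoxia-induced genes lie above 0 on both axes, on either side of the dotted line, the 28 mitosis genes lie above 0 on the vertical axis and mostly below 0 on the horizontal one, and HMOX1 lies near 0 on the vertical axis only.

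Beside the other fibroblasts, the CRPCCAFs, under DMSO, 2156 genes differed from the CCAF coculture (13.4%), 1127 that were higher with CRPCCAFs (7.03%) and 1029 that were lower (6.41%). Each coculture is set against the other here and the libraries of LNCaP alone are not used. Of the 57 glycolysis and hypoxia-induced genes, 35 were higher with CRPCCAFs and 0 lower, with a median log2 difference of 0.32 between the cocultures. VEGFA had 36.4 and 36.7 RPKM with CCAFs and 74.4 and 77.6 RPKM with CRPCCAFs (log2 1.04, SE 0.0699, adjusted p = 2.1e-05), whereas LDHA did not differ detectably (log2 0.07, adjusted p = 0.28). Androgen-activated genes split evenly, 7 higher and 7 lower, and neither KLK2 (log2 0.10, adjusted p = 0.38) nor KLK3 (0.10, adjusted p = 0.26) passed.

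Single genes and further lists also differed between the 2 cocultures, and for several genes the CCAF coculture was the one nearer to LNCaP alone. CLU had 8.78 and 6.97 RPKM with CCAFs and 29.7 and 32.8 RPKM with CRPCCAFs (log2 1.87, SE 0.102, adjusted p = 4.8e-06), and IGFBP3 had 5.99 and 5.2 against 40.9 and 40 RPKM (log2 2.65, SE 0.0620, adjusted p = 2.4e-08). For both, LNCaP alone lay between the cocultures, at 12.6 and 14.2 RPKM and at 7.03 and 7.87 RPKM. KLF6, a member of the hypoxia-induced lists, overlapped between LNCaP alone and with CCAFs. It stood at 7.38 and 7.21 RPKM with CRPCCAFs (log2 1.00, adjusted p = 5.8e-05). Of the 10 NF-kB targets and chemokines, 6 were higher with CRPCCAFs than with CCAFs, among them CXCL8, the neutrophil chemokine (log2 1.24, adjusted p = 0.00028). Of 5 YAP-linked genes, 4 were higher, led by CYR61 (log2 2.04, adjusted p = 2.5e-07). Mitosis genes were lower with CRPCCAFs than with CCAFs in 17 of 28 and replication genes in 19 of 28. Amino acid stress genes gave 5 higher and 0 lower of 16, and ASNS did not pass at 37.9 and 36 RPKM with CRPCCAFs (adjusted p = 0.088).

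**Figure D5:**
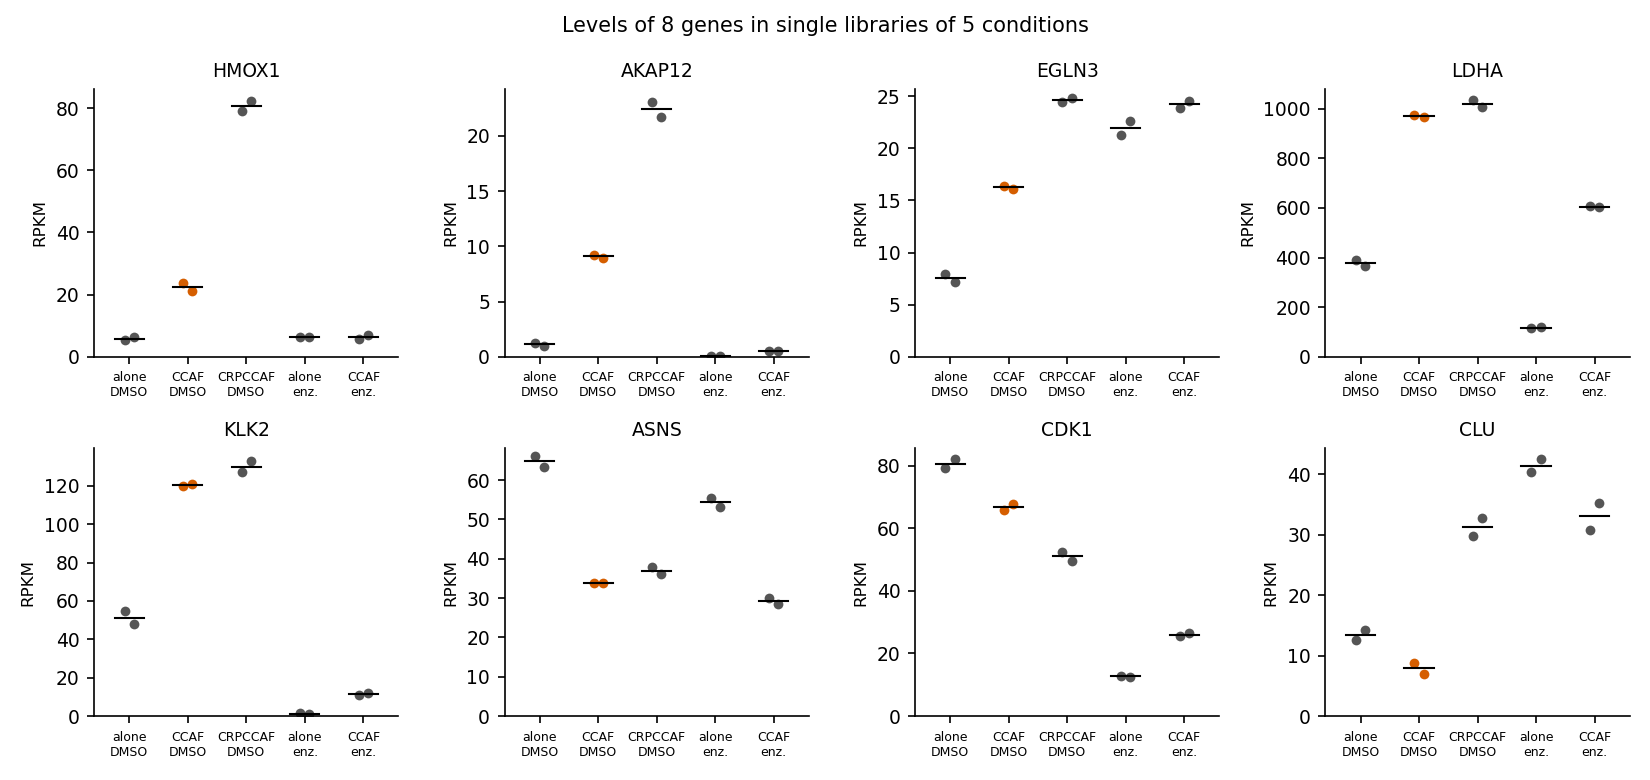
RPKM of 8 genes in the single libraries (points) of 5 LNCaP conditions, with bars for the group means, orange for LNCaP with CCAFs under DMSO and enz. for 1 µM enzalutamide; each vertical axis starts at 0. HMOX1 is raised only in the DMSO cocultures among these conditions, CLU is lowest with CCAFs under DMSO, and ASNS is lower in each coculture than in LNCaP alone under DMSO or under the drug.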

How the data were processed

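The authors deposited RPKM values per gene symbol for 12 LNCaP libraries, 6 groups of 2, per the file headers, and no read counts were used. The submitters' processing notes name HISAT2, HTSeq, DESeq2 and the builds hg19 and mm10 without the role of each. Of 44591 names, 27 were calendar dates and were removed. Genes at 1 RPKM or more in at least 2 of the 12 libraries were kept, which left 16042.

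All 12 libraries were fitted together on log2(RPKM + 1) with a mean-variance trend, using limma 3.58.1 (R 4.3.3), so that the 6 groups share 1 estimate of the spread. Tests were two-sided, p-values were adjusted by Benjamini-Hochberg over all genes tested, and the threshold was 0.05. The test was tested on simulated data. With a pseudocount of 1, log2 differences of low genes understate their fold. Reads were recovered from the smallest step of each gene's values, for 15941 of the 16042 genes tested. The totals per library also include names that were not tested. Recovered reads describe depth, and no test was run on them.

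The groups, members and lists were chosen with earlier results of these data known. Named genes passed the threshold, had a mean of at least 1 RPKM in 1 of the 2 groups and libraries that did not overlap: the 15 largest rises and falls, up to 6 members of each list, the 4 short RNA genes with the largest falls, and a set of fixed genes. Members of the glycolysis and hypoxia lists are also given where they did not pass. In the androgen lists, most that did not pass are counted but not named. Other genes are named where a sentence on a list or on another condition needs them, chosen after their values were seen. Some genes are counted in their lists but not reported by name here. Promoters came from RefSeq on GRCh38.p14. Alternative fits used no filter on low values, a pseudocount of 0.1, a block for the replicate number, median-of-ratios scaling, the 6 DMSO or the 4 compared libraries alone, and each library left out in turn.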

Additional observations from a re-analysis of the deposited data

Results flagged for a closer look

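The effect of CCAFs differed between enzalutamide and DMSO, by limma's test of the difference itself, for 1125 genes. Each value below is that difference on log2(RPKM + 1), the coculture effect under the drug minus that under DMSO, so a negative value means a smaller rise or a larger fall under the drug.

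Among the largest rises under DMSO, the effect was smaller under the drug for HMOX1 (-1.78), AKAP12 (-1.74), ANGPT2 (-1.37), DPYSL4 (-1.09), BAMBI (-0.68), ADAM7 (-0.54), PFKFB3 (-0.44) and NDRG1 (-0.29). The RPKM ratio of AKAP12 was 7.97 under DMSO and 6.69 under the drug, where it was at or under 0.107 RPKM in LNCaP alone, so most of its difference on this scale goes with its lower level there. With a pseudocount of 0.1 the difference of AKAP12 was -1.07 (adjusted p = 0.021) and that of ADAM7 turned to 0.31 (adjusted p = 0.27).

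Among the largest falls under DMSO, the effect was higher under the drug for TMEM238 (1.81), LINC01133 (0.80), DDC (0.63), PKIB (0.60), LINC01213 (0.50), MANEA (0.50) and GRB10 (0.22). GRB10 was lower with CCAFs under DMSO and under the drug, at RPKM ratios of 0.617 and 0.73.

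Of the fixed genes, the effect was higher under the drug for KLK3 (2.28), KLK2 (1.24), MKI67 (1.14), MYC (0.66) and UGT2B17 (0.48), and lower for IGFBP3 (-1.66), FN1 (-0.73) and TMPRSS2 (-0.35). KLK3 had a ratio of 1.55 under DMSO and 7.67 under the drug, and FN1 a ratio of 1.88 and 1.12. In LNCaP alone, 32 of 36 androgen-activated genes fell with enzalutamide against DMSO, with a median log2 difference of -1.16.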

How the results depend on the processing

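The count of genes that passed was 1563 with median-of-ratios scaling, 1523 with a pseudocount of 0.1 and 1145 without the filter on low values. It was lower in fits of fewer libraries: 830 (517 rose, 313 fell) with the 4 libraries compared and 768 (504 rose, 264 fell) with the 6 DMSO libraries. Without the filter 409 fell. Leaving out 1 library gave 640 to 824 genes, 440 to 554 of them higher and 200 to 270 lower; the cause of these losses was not tested. The same step gave 821 to 1962 for CRPCCAFs against CCAFs, 1672 to 1951 for CCAFs under enzalutamide and 623 to 813 for the difference of effects. Of 163 named genes that passed, 0 reversed in any fit, and 101 passed in every fit. Calls lost numbered 0 with the other scaling, 5 with a pseudocount of 0.1, 25 without the filter, 37 and 39 with the 4 and the 6 libraries, and 41 to 48 without 1 library. With the replicate number as a block, 1414 genes passed (824 rose, 590 fell) and 4 named calls were lost. Deviations of libraries with the same number correlated across genes between -0.0617 and 0.084. Noise of single libraries enters these values, so they cannot decide whether the numbers pair the samples. Genes with a few reads, such as the short RNAs, are limited by depth.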

Other observations

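Apart from the neuroendocrine markers, the genes given here are single genes in no list, chosen after their values were seen, and stand for no group. MAP1B, a microtubule-binding protein of growing axons, had 20.1 and 21.8 RPKM alone and 50.1 and 49 RPKM with CCAFs (log2 1.20, SE 0.0575, limma adjusted p = 2.1e-06). TUBB3, the neuronal beta-tubulin, rose from 4.02 and 3.55 RPKM to 9.58 and 9.83 RPKM (adjusted p = 5.7e-05), and TUBA1A, an alpha-tubulin of neurons, from 4.76 and 4.41 RPKM to 10.5 and 10.7 RPKM (adjusted p = 7.4e-07). FSCN1, which bundles actin in cell protrusions, rose from 3.25 and 2.45 RPKM to 8.89 and 9.14 RPKM (adjusted p = 1.1e-04). The 9 neuroendocrine markers summed to under 1 RPKM in each library, with INSM1 at 0. Under enzalutamide the log2 difference of MAP1B with CCAFs was -0.02, against 0.48 for TUBB3 and 0.51 for TUBA1A.

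SCNN1G, a subunit of the epithelial sodium channel, had 0.34 and 0.259 RPKM alone and 2.57 and 2.64 RPKM with CCAFs (log2 1.47, adjusted p = 2.6e-06). ATP1B1, a subunit of the sodium pump, had 69 and 70 RPKM alone and 153 and 149 RPKM with CCAFs (log2 1.11, SE 0.0335, adjusted p = 1.6e-07), while ATP1B3, another subunit of the pump, did not pass (log2 0.07, adjusted p = 0.23).

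MIR210HG, the host transcript of a hypoxia-induced microRNA and in no list, rose from 2.87 and 2.71 RPKM to 7.56 and 7.4 RPKM (adjusted p = 1.3e-05). SLC1A5, a glutamine importer, fell from 43.6 and 42.1 RPKM to 29.7 and 29.2 RPKM (log2 -0.53, adjusted p = 4.2e-05), with the same log2 difference under enzalutamide.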
